A study of Mus musculus with 3 samples.

Results

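The cells described here are 151 nuclei of the mouse olfactory bulb, out of 31703 nuclei that were kept from 3 mice. They form 1 of the 22 clusters in the authors' deposited table, and they were chosen by a readout: theirs is the cluster with the highest pooled level of Pdgfra, the receptor for platelet-derived growth factor, and Cspg4, the NG2 proteoglycan, was also highest there. Both genes are the usual marks of oligodendrocyte precursor cells (OPCs), so the nuclei are called OPC-like. Mouse 1 gave 50 of them, mouse 2 gave 91 and mouse 3 gave 10.

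All 3 mice were adult C57Bl/6 males with the same treatment. A retrogradely transported virus, retroAAV-CAG-H2B-GFP, was injected into the piriform cortex (PCx) and the anterior olfactory nucleus (AON) to put a green fluorescent histone into neurons of the bulb that project there. The CAG promoter that drives the label is active in most cell types, and nuclei were sorted for GFP and for the DNA dye DRAQ5 before single-nucleus RNA sequencing. There is 1 group of mice, with 1 library each and no untreated control, so no condition can be compared, and glia reached these libraries through a gate that was set for labelled nuclei.

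OPCs are the dividing cells of the oligodendrocyte lineage, spread through grey and white matter of the adult brain. Platelet-derived growth factor acting on Pdgfra keeps them dividing, and they receive synapses from neurons and carry transmitter receptors. When an OPC begins to differentiate it loses Pdgfra and NG2, passes through a committed stage marked by genes such as Gpr17, Bmp4, Tcf7l2, Bcas1 and Enpp6, and then switches on the myelin genes.

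The levels of the genes that chose the nuclei were as follows. Levels are counts of unique molecular identifiers (UMIs, 1 per captured RNA molecule), summed over the nuclei of a mouse and scaled to a total of 1000000 (counts per 1000000 UMIs, CPM). Pdgfra (ENSMUSG00000029231, chr5:75152292-75198215 on the plus strand of GRCm38) was at 489.9, 507 and 750.2 CPM in the OPC-like nuclei of mice 1, 2 and 3. Pooled over mice it was at 523 CPM from 715 UMIs. The next cluster, number 18, had 171 CPM from 188 UMIs in 173 nuclei, and the cluster after it had 2.56 CPM. Cluster 18 carried fibroblast and vascular markers, and the OPC-like nuclei did not: the summed level of 6 fibroblast markers was 0, 2.45 and 0 CPM in the 3 mice, and that of 9 vascular and mural markers was 11.7, 13.5 and 32.6 CPM, with Pdgfrb at 0. Cspg4 (ENSMUSG00000032911, chr9:56865033-56899870, plus strand) was at 166, 144 and 122 CPM, or 149 CPM pooled, against 21.8 CPM in cluster 18. These values describe the choice of the cluster and test nothing.

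**Figure D1:**
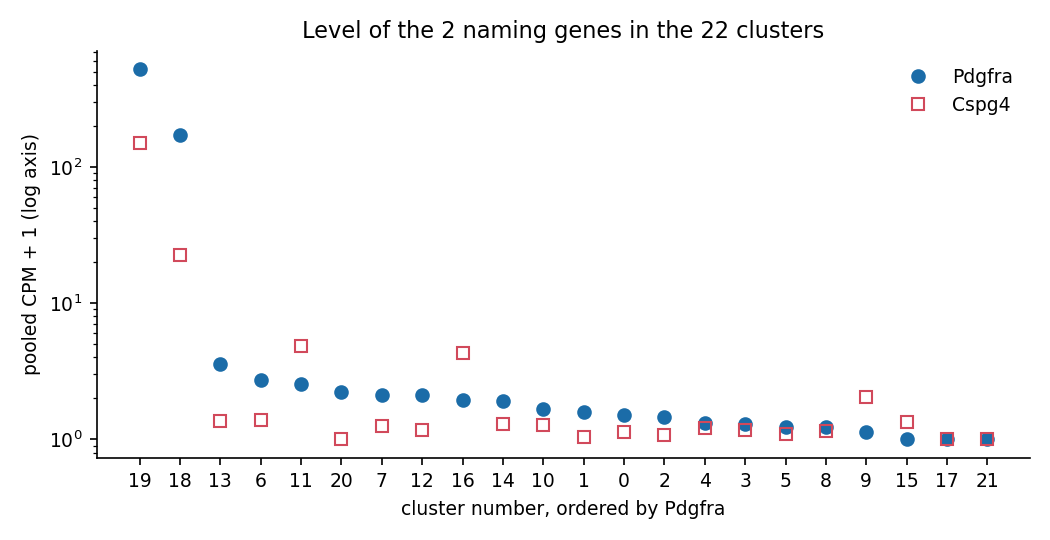
Pooled level (CPM + 1, log axis) of Pdgfra (filled circles) and Cspg4 (open squares) in each of the 22 clusters, ordered by Pdgfra. Cluster 19, the OPC-like cluster, is highest for both genes, with 523 CPM of Pdgfra and 149 CPM of Cspg4, and cluster 18 comes next with 171 and 21.8 CPM.

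All 12 markers in the OPC list had UMIs in every mouse. Pdgfra and Cspg4 are 2 of them and chose the cluster. Of the other 10, 8 were higher in this cluster than in any other, and Ptprz1 and Lhfpl3 were not. The clusters were formed on variable genes of these same nuclei, so these counts too are a description. Sox10, a transcription factor of the whole oligodendrocyte lineage, was at 694, 507 and 448 CPM. Olig2, a helix-loop-helix factor of the same lineage, was at 316, 203 and 269 CPM. Neu4, a sialidase, had the largest ratio over the highest other cluster of any gene, at 424, 341 and 318 CPM against at most 1.82 CPM in any other cluster. No nucleus of the oligodendrocyte-like or astrocyte-like cluster had a Neu4 UMI, and 125 of the 151 OPC-like nuclei did (82.8%, or 51.0% after each nucleus was thinned to 2000 UMIs). In inhibitory-neuron cluster 0, whose nuclei had a median of 6920, 7494.5 and 9001 UMIs in the 3 mice, 0.208% of 7681 nuclei had one (0.0782% thinned). A Pdgfra UMI was in 90 nuclei, which says nothing of the label, since Pdgfra chose the cluster. The data go against it for 57 of the 61 others, which had Enpp6 and no Pdgfra, with Cspg4 in 5 of them and the myelin gene Mog in 31. OPC-like is therefore used here as the name that the choosing rule gives to the whole cluster, and the 2 sets of nuclei are called by their genes.

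The nuclei were set beside oligodendrocyte-like and astrocyte-like nuclei for depth. The OPC-like cluster held 426576, 817301 and 122638 UMIs in the 3 mice, so that 1 UMI stood for 2.34, 1.22 and 8.15 CPM, and levels in mouse 3 rest on 10 nuclei. The median nucleus had 7105.5, 7995 and 10312.5 UMIs, against 4608, 5691 and 5489 in oligodendrocyte-like nuclei and 3839.5, 5364 and 6063 in astrocyte-like nuclei. The OPC-like median was higher in 3 of 3 mice in both comparisons, 8471 ± 1656 against 5263 ± 576 and 5089 ± 1137 (SD, n = 3 mice). Median genes per nucleus were 2867 ± 467, against 1905 ± 247 and 1997 ± 299. The groups did not overlap in any of the 4 comparisons, and each gave p = 0.1 by an exact two-sided permutation test over libraries (0.1 after adjustment), the smallest p that 3 against 3 can give. Both sides came from the same 3 mice. With the cell types exchanged within each mouse, each comparison gave p = 0.25 by an exact two-sided permutation test, which is again the smallest that 3 mice can give. Neither test could thus reach 0.05, and the OPC-like side was deeper in every mouse. Shares of nuclei with a UMI are therefore also given after thinning to 2000 UMIs, where they are compared.

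OPC-like nuclei made up 0.855% of the nuclei of mouse 1 (95% exact binomial interval 0.636 to 1.13), 0.431% of mouse 2 (0.347 to 0.529) and 0.210% of mouse 3 (0.101 to 0.387). The intervals cover counting error only. That of mouse 1 lay above those of the other two, which overlapped. The count for each oligodendrocyte-like nucleus was 0.926, 0.440 and 0.476, and for each astrocyte-like nucleus 0.266, 0.120 and 0.0524. The number of cells and how readily they passed the GFP gate cannot be told apart here.

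UMIs of neuron genes were found in these nuclei and in other glia. A UMI of Gad1, the enzyme that makes the transmitter GABA, was found in 57.0% of OPC-like nuclei, 55.3% of oligodendrocyte-like and 51.7% of astrocyte-like nuclei, and in 98.3% of inhibitory cluster 0. Thinned to 2000 UMIs, the shares were 27.8%, 32.7%, 31.3% and 82.8%. OPC-like nuclei thus lay near the share of the other glia, so no expression of Gad1 is read from these UMIs, and their source was not tested. The summed level of 5 inhibitory-neuron markers was 818, 1477 and 693 CPM in OPC-like nuclei and 1444, 2351 and 1177 CPM in astrocyte-like nuclei. In oligodendrocyte-like nuclei it was 658, 1965 and 179 CPM, below the OPC-like level in mice 1 and 3 and above it in mouse 2. By a stricter mark, 5, 26 and 3 OPC-like nuclei of the 3 mice had 5 or more UMIs of Gad1, Gad2, Slc32a1, Slc17a6 and Slc17a7 together. Markers of other glia differed by list: 9 astrocyte markers summed to 204, 289 and 342 CPM with Aldh1l1 at 0, and 8 microglia markers to 68.0, 71.0 and 73.4 CPM with Csf1r, Tmem119 and P2ry13 at 0. The 13 oligodendrocyte markers summed to 8500, 2855 and 3792 CPM, against 41813, 20108 and 24651 CPM in oligodendrocyte-like nuclei. The 10 ensheathing-glia markers, of which Sox10 is 1, summed to 3922, 1827 and 1745 CPM, against 26413, 12780 and 16473 CPM in ensheathing-glia-like nuclei. Markers of these 2 kinds of glia were thus below their own cluster in every mouse, but not near 0. Of the OPC-like barcodes, 1 of mouse 2 also occurred in mouse 1 and 1 of mouse 3 in mouse 2, and neither was OPC-like in the other mouse.

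Other markers of the list were counted by nucleus, as a description. Of the 4 genes Neu4, Olig2, Sox10 and C1ql1, which did not choose the cluster by name, 3 or more had a UMI in 36 of 50, 58 of 91 and 9 of 10 nuclei inside it. Outside it this held for 2 of 5795, 6 of 21014 and 0 of 4743 nuclei. Thinned, the counts were 20, 19 and 5 inside and 0 outside in each mouse. All 4 genes are among the 8 that were highest in this cluster, and Ptprz1 and Lhfpl3, which were not, are left out. Low counts outside thus follow in part from the choice of genes, and nothing is read from the contrast.

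Within the cluster the nuclei fell into 2 sets that did not mix. Pdgfra was found in 90 nuclei and Enpp6 (ENSMUSG00000038173, chr8:46986887-47096762, plus strand), a choline-specific phosphodiesterase of newly forming oligodendrocytes, in 57, and no nucleus held UMIs of both. The 4 nuclei with neither came from mouse 2. A Pdgfra nucleus held from 1 to 30 Pdgfra UMIs, and 87 of the 90 held 2 or more. An Enpp6 nucleus held from 1 to 34 Enpp6 UMIs, and 53 of the 57 held 2 or more. This split was noticed in these data, so the values that follow describe it and carry no test.

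**Figure D2:**
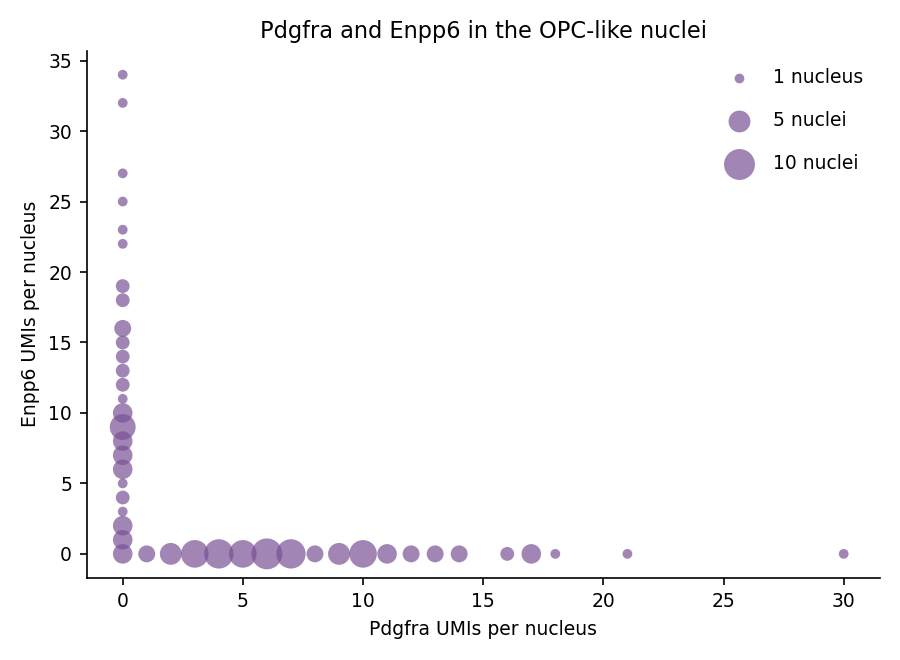
UMIs of Pdgfra (horizontal axis) and of Enpp6 (vertical axis) in each of the 151 OPC-like nuclei, with the area of a point growing with the number of nuclei at that place. All points lie on 1 of the 2 axes: 90 nuclei have Pdgfra, 57 have Enpp6, 4 have neither and 0 have both.

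The 250 bases before the start site of both genes are shown because no OPC-like nucleus held UMIs of both. They were read from RefSeq on GRCm38.p6, which held 1 start site for each (chr5:75152001-75152250 for Pdgfra and chr8:46986637-46986886 for Enpp6, both on the plus strand). Capitals mark matches, on either strand, to CANNTG, the E-box read by helix-loop-helix factors such as Olig2, and to ACAAT, the core of sites for Sox factors.
Pdgfra: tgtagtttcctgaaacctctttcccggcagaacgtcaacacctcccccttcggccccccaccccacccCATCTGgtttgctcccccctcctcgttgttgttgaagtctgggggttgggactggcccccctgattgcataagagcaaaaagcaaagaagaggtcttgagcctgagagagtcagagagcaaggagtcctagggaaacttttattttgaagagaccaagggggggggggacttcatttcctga
Enpp6: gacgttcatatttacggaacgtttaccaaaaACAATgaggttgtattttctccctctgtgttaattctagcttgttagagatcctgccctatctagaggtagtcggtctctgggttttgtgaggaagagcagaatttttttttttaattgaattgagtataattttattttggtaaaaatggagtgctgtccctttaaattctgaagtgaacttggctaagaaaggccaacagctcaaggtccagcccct
The Pdgfra window held 1 E-box, CATCTG, which began 182 bases before the start site, and no ACAAT. The Enpp6 window held 1 ACAAT, which began 219 bases before the start site, and no E-box. Of 32851 such windows in the genome, 66.2% held a CANNTG and 27.7% an ACAAT, so either match is common, and it describes the letters of the window only.

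Every mouse had both sets. Pdgfra nuclei numbered 26, 57 and 7 and made up 52.0%, 62.6% and 70.0% of the OPC-like nuclei (61.5% ± 9.05, SD, n = 3). Enpp6 nuclei numbered 24, 30 and 3 and made up 48.0%, 33.0% and 30.0% (37.0% ± 9.65). The exact intervals of the Enpp6 share, 33.7 to 62.6%, 23.5 to 43.6% and 6.67 to 65.2%, overlapped between all mice. Pdgfra nuclei had a median of 6185 UMIs and 2547.5 genes, and Enpp6 nuclei had 8949 UMIs and 2862 genes. Of the Pdgfra nuclei 21 had 5 or more UMIs of the 5 neuron genes above, and of the Enpp6 nuclei 11 had. The Enpp6 nuclei were thus the deeper set by nucleus, and neuronal RNA was present in both.

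**Figure D3:**
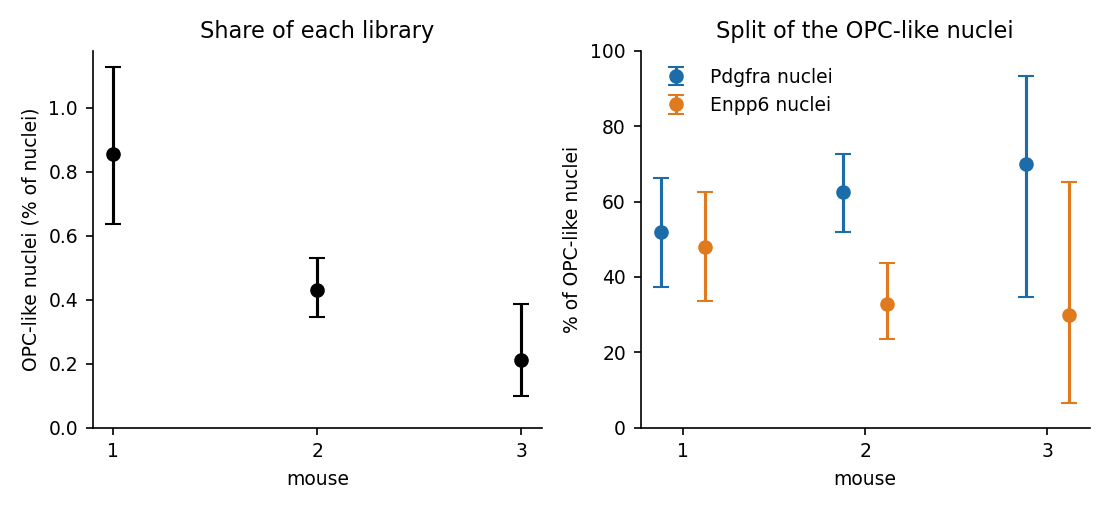
Left, OPC-like nuclei as a percentage of all nuclei of each mouse. Right, Pdgfra nuclei (blue) and Enpp6 nuclei (orange) as a percentage of the OPC-like nuclei of each mouse. Bars are 95% exact binomial intervals. The share falls between 0.210% and 0.855%, and the Enpp6 share between 30.0% and 48.0%.

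Other marks of the lineage followed the split to different degrees. The sets are those of the deposited counts throughout, and counts after thinning each nucleus to 2000 UMIs follow in brackets. Cspg4, lost with Pdgfra when precursors differentiate, had a UMI in 69 of 90 Pdgfra nuclei (41 thinned) and in 5 of 57 Enpp6 nuclei (3 thinned). Bmp4, a secreted signal of committed cells, had one in 7 of 90 (3) and 42 of 57 (35). Mog, a protein of the outer myelin surface, had one in 1 of 90 (0) and 31 of 57 (16). These 3 genes lay mostly on 1 side of the split at both depths. Gpr17, a receptor that peaks at commitment, was found in 54 of 90 (27) and 52 of 57 (31). Neu4 was found in 77 of 90 (46) and 44 of 57 (28), so that both genes had UMIs in many nuclei of either set. All 6 of Gpr17, Bmp4, Neu4, Enpp6, Bcas1 and Tcf7l2 were found together in 39 of the 57 Enpp6 nuclei (13). A Pdgfra nucleus could not hold all 6, since Enpp6 is among them.

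At least 2 of those 6 genes had a UMI in 98.0%, 89.0% and 100% of the OPC-like nuclei of the 3 mice, and in 86.0%, 50.5% and 80.0% after thinning. Pooled over mice this was 92.7% of OPC-like nuclei (64.2% thinned), 43.6% of oligodendrocyte-like nuclei (15.3%), 2.29% of astrocyte-like nuclei (0.355%) and 0.117% of inhibitory cluster 0 (0 of 7673 nuclei). These shares cover both sets, and of the 6 genes Neu4 also stands in the OPC list. Without Neu4 and the naming gene Enpp6, at least 2 of the 4 others had a UMI in 62 of 90 Pdgfra nuclei (22 thinned) and in 57 of 57 Enpp6 nuclei (53). In Pdgfra nuclei by mouse this was 23 of 26, 33 of 57 and 6 of 7 (12, 8 and 2 thinned), so the count fell with depth in every mouse. The share also differed between mice at equal depth, with 46.2% in mouse 1 and 14.0% in mouse 2 after thinning. As deposited it was 88.5% and 57.9%, at a median of 5865 and 6610 UMIs. The source of that difference was not tested. A Bcas1 UMI was in 67 of 90 Pdgfra nuclei (32) and 57 of 57 Enpp6 nuclei (55). A Tcf7l2 UMI was in 41 of 90 (20) and 56 of 57 (45).

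For comparison with mature cells, an Enpp6 UMI occurred in 77 of 282 oligodendrocyte-like nuclei (27.3%, or 14.6% thinned), against 1.06% of astrocyte-like nuclei (0.177%) and 1.41% of inhibitory cluster 0 (0.430%). A Mog UMI occurred in 97.9% of oligodendrocyte-like nuclei (86.8% thinned), in 21.2% of all OPC-like nuclei (10.6% thinned) and in 2.46% of astrocyte-like nuclei (1.33% thinned). The share of the whole cluster lay between those of the other 2 clusters, but it pools 2 unlike sets. A Mog UMI was in 54.4% of Enpp6 nuclei (28.1% thinned) and 1.11% of Pdgfra nuclei (0% thinned). The Enpp6 share thus lay between the astrocyte-like and oligodendrocyte-like shares, and the Pdgfra share lay below the astrocyte-like one.

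Levels were then compared within each mouse. In Enpp6 nuclei against Pdgfra nuclei, 389 of 10060 genes tested (3.87%) were more than 2-fold higher in every mouse and 694 (6.9%) more than 2-fold lower, with a median log2 ratio over all genes of -0.24. A gene was tested if it reached a mean of 10 CPM over both sides, and 5 CPM were added to each level before the ratio. The 2 genes that define the sets were left out. A gene near 0 in 1 set passes that filter only through the other, so it could differ in 1 direction alone. Counts of a list are therefore followed by those over its genes with a mean of at least 10 CPM on both sides, where 275 of 8161 genes (3.37%) were higher and 305 (3.74%) lower. For named genes that are at or near 0 in 1 set, the values are a description. In mouse 3 there were 3 Enpp6 nuclei and 7 Pdgfra nuclei, and 1 UMI in those 3 nuclei was worth 21.2 CPM, so a 0 in that mouse is coarse.

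Of 14 myelin genes tested 11 were higher and none lower, with a median log2 ratio of 3.75 (7 of 10 higher on both sides, median 2.73). Mbp, the myelin basic protein, was at 4980.4, 2685 and 4298 CPM in Enpp6 nuclei and at 42.2, 51.7 and 0 CPM in Pdgfra nuclei. Mag, a myelin adhesion protein, was at 1004, 321 and 508 CPM against 10.6, 6.21 and 0 CPM. In both genes the lowest Enpp6 value was far above the highest Pdgfra value. Cnp, Cldn11, Ugt8a, Gjc3, Fa2h and Mog were also past the fold.

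Myelin genes of the mature cell were an exception. Mobp was at 46.4, 46.8 and 0 CPM in Enpp6 nuclei, against 21.1, 10.3 and 13.3 CPM in Pdgfra nuclei and 3376, 1539 and 2509 CPM in oligodendrocyte-like nuclei. Mal, a raft protein of compact myelin, had no UMI in Enpp6 nuclei and was at 2242, 1300.3 and 943 CPM in oligodendrocyte-like nuclei. Opalin and Ermn likewise had no UMI in Enpp6 nuclei, and Aspa was at 12.7, 0 and 0 CPM. For these genes both sets were near 0, and the oligodendrocyte-like nuclei stood above them in every mouse. Mbp was at 5385, 2941 and 4617 CPM in oligodendrocyte-like nuclei, above the Enpp6 nuclei of the same mouse in 3 of 3 mice and by less than 2-fold in each.

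Genes of committed progenitors, other than the naming gene, had 8 of 11 past the fold and none lower, with a median log2 ratio of 3.22 (7 of 10 on both sides, median 3.09). Myrf stands in this list and in that of myelin genes. Bcas1 was at 3998, 3695 and 3896 CPM in Enpp6 nuclei and 443, 246 and 358 CPM in Pdgfra nuclei. Tcf7l2, a Wnt effector needed for differentiation, was at 2906, 1578 and 1439.7 CPM against 169, 91.1 and 79.6 CPM. Bmp4 was at 582, 471 and 318 CPM against 26.4, 8.28 and 39.8 CPM. In these genes no Enpp6 value came near a Pdgfra value. Fyn, a kinase that signals to the myelin programme, was at 3719.5, 2882 and 3049 CPM against 396, 252 and 385 CPM. Tns3, an adhesion adaptor, was at 1704, 1384 and 1757 CPM against 127, 141 and 186 CPM. Gpr17, Neu4 and Nkx2-2 were not past the fold. Gpr17 stood at 679, 368 and 233 CPM in Enpp6 nuclei and 364, 120.0 and 265 CPM in Pdgfra nuclei, with overlapping ranges.

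**Figure D4:**
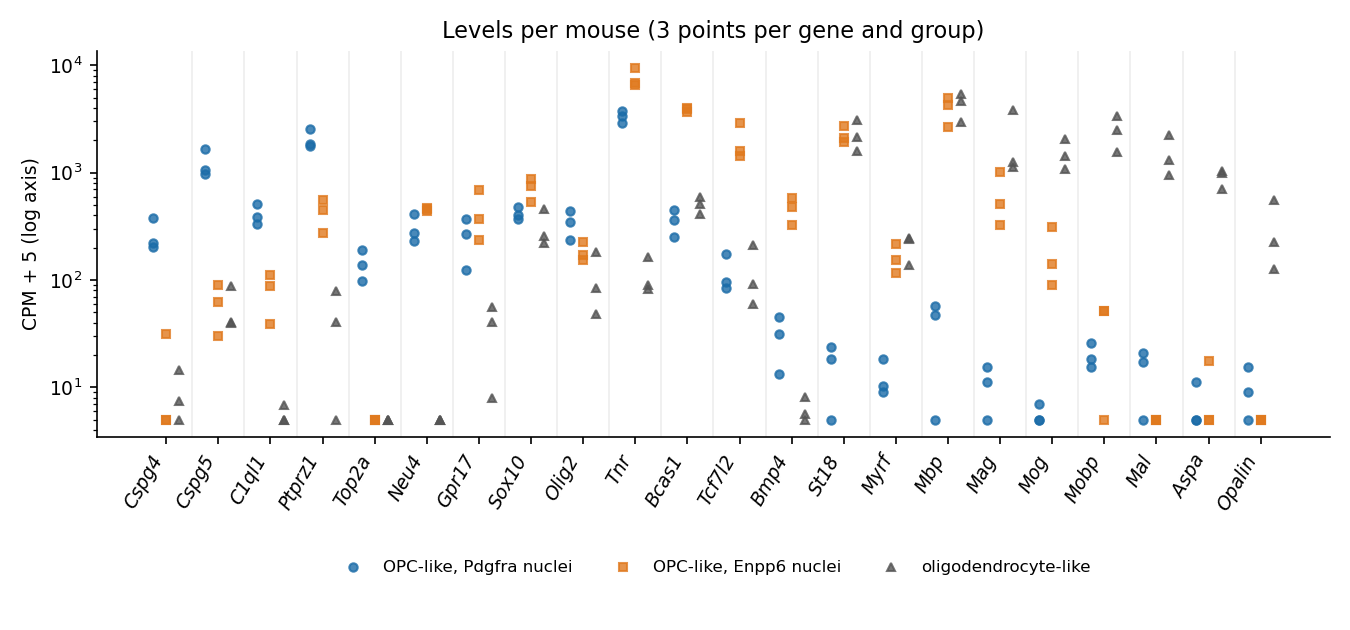
Level (CPM + 5, log axis) of 22 lineage genes in Pdgfra nuclei (blue circles), Enpp6 nuclei (orange squares) and oligodendrocyte-like nuclei (grey triangles), 1 point for each of 3 mice. Cspg4 to Top2a sit higher in Pdgfra nuclei, Bcas1 to Mog higher in Enpp6 nuclei, and Mobp to Opalin are high in oligodendrocyte-like nuclei.

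Of the lineage's transcription factors, 5 of 23 tested were higher in Enpp6 nuclei, 6 were lower and 12 were not past the fold (4 higher and 3 lower of 19 on both sides). Sox10, Sox6, Sox8 and Olig2 were among the last group, with Sox10 at 873, 742 and 529 CPM in Enpp6 nuclei and 469.8, 366 and 398 CPM in Pdgfra nuclei. St18, a zinc finger factor, had the largest mean log2 ratio upward of all genes tested, at 2117, 1939 and 2689 CPM against 0, 18.6 and 13.3 CPM. Myrf, the factor that switches on myelin genes, was at 211, 110.3 and 148 CPM against 5.28, 4.14 and 13.3 CPM. Zeb2, which represses signals that block differentiation, was at 2209.8, 2765 and 2773 CPM against 786, 683 and 424 CPM. All 3 were higher in every Enpp6 value than in any Pdgfra value. On the lower side Hes5, a Notch target, was at 0, 16.7 and 0 CPM against 132, 99.3 and 66.3 CPM, and Prrx1, a homeobox factor, at 0, 3.34 and 0 CPM against 52.8, 80.7 and 66.3 CPM. Olig1, the partner of Olig2, was at 325, 274 and 84.7 CPM against 1272, 768 and 968 CPM. These 3 genes did not overlap between the sets either, but Olig1 remained well above 0 in both.

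Notch1, the receptor of the Notch pathway, and its target Hes1 passed the filter through the Pdgfra nuclei only, so their values are a description. Notch1 was at 63.3, 47.6 and 92.8 CPM in them and 8.43, 0 and 0 CPM in Enpp6 nuclei. Hes1 was at 84.5, 45.5 and 39.8 CPM and had no UMI in Enpp6 nuclei. Among 17 Notch, Wnt, BMP and hedgehog genes tested, 3 were higher in Enpp6 nuclei (Tcf7l1, Tcf7l2 and Bmp4) and 3 lower (Notch1, Hes1 and Hes5). All 3 of the lower genes passed the filter through the Pdgfra nuclei only. On both sides the 3 higher remained and none of 12 was lower, so no fall of the list is read here. Tcf7l1, like Tcf7l2 a Wnt effector, stood at 586, 294 and 783 CPM in Enpp6 nuclei and 52.8, 26.9 and 26.5 CPM in Pdgfra nuclei.

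Of 18 cell cycle genes tested 15 passed the filter only through the Pdgfra nuclei, so the count of 10 lower in Enpp6 nuclei and none higher is given as a description, and no median is read from it. Of the 3 on both sides 1 was lower. Top2a, a topoisomerase of dividing cells, was at 185, 135 and 92.8 CPM in Pdgfra nuclei and had no UMI in Enpp6 nuclei. Mki67, the Ki-67 antigen, was at 116, 72.4 and 53 CPM against 8.43, 0 and 0 CPM. Kif11, a spindle motor, was at 106, 66.2 and 39.8 CPM and had no UMI in Enpp6 nuclei. By nucleus, 4 of 26, 10 of 57 and 1 of 7 Pdgfra nuclei of the 3 mice held 2 or more of 12 cycle genes (4, 8 and 1 thinned). In Enpp6 nuclei this held for 0 of 24, 2 of 30 and 0 of 3 (0 in each mouse thinned). With 3 Enpp6 nuclei in mouse 3, the shares of that mouse cannot be compared. Of the 15 Pdgfra nuclei, 12 held 5 or more cycle genes, and of the Enpp6 nuclei none did. Of all 151 nuclei 112 held none of the 12 and 22 held 1. In the whole cluster 17 nuclei (11.3%) held 2 or more, against 4.96% of oligodendrocyte-like, 0.528% of astrocyte-like and 0.859% of cluster 0 nuclei. By mouse the share was 8.0%, 13.2% and 10.0%, against 3.70%, 4.83% and 9.52% in oligodendrocyte-like nuclei, so that it was nearly equal in mouse 3, where 1 of 10 and 2 of 21 nuclei held 2 or more. Thinned, the pooled shares were 8.61%, 2.14%, 0% of 1128 nuclei and 0.0782%. At 1 or more of the 12 genes the order turned, with 25.8% of OPC-like and 70.6% of oligodendrocyte-like nuclei (13.2% and 44.8% thinned). One of the 12, Anln, is also a gene of mature oligodendrocytes, and its part in these shares was not tested.

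Chondroitin sulfate proteoglycans and matrix genes, which make up much of the coat of OPCs, were lower in Enpp6 nuclei in 10 of 18 tested and higher in 1, with a median log2 ratio of -2.30 (7 of 14 lower and 1 higher on both sides, median -1.62). Several genes of the list are also expressed by astrocytes, and astrocyte markers moved the same way: of 4 tested Slc1a2 and S1pr1 were lower (1 of 3 on both sides), with a median of -2.46. All 9 astrocyte markers summed to 38.0, 191 and 233 CPM in Enpp6 nuclei and 412, 348 and 411 CPM in Pdgfra nuclei, against 6914, 4305 and 6771 CPM in astrocyte-like nuclei, with Aldh1l1 at 0 in both sets. Their part in the count was not tested. Gpc5, a glypican that holds growth factors at the surface, was at 2967, 2386 and 2493 CPM in Pdgfra nuclei and 63.3, 127 and 42.3 CPM in Enpp6 nuclei. Cspg5 was at 1663, 1058 and 968 CPM against 25.3, 56.8 and 84.7 CPM. Ptprz1, a receptor phosphatase that carries chondroitin sulfate, was at 2544, 1784 and 1843 CPM against 269.9, 555 and 445 CPM. The groups did not overlap in these genes. Vcan and Bcan were not past the fold, and neither was Tnr, a tenascin of the perineuronal matrix, which was at 6579, 6798 and 9379 CPM in Enpp6 nuclei and 3362, 2879 and 3753 CPM in Pdgfra nuclei. These values of Tnr did not overlap, and under TMM factors it was past the fold upward. Csgalnact1, an enzyme that starts chondroitin sulfate chains, was past the fold upward, at 805, 779 and 550.5 CPM against 264, 174 and 172 CPM.

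Among ion channels 8 of 27 tested were lower in Enpp6 nuclei and none higher (7 of 25 on both sides). Kcnip3, a calcium-binding potassium channel partner, had the largest fall of any gene tested. It was at 311, 302 and 570.3 CPM in Pdgfra nuclei and 0, 3.34 and 0 CPM in Enpp6 nuclei. It passed the filter through the Pdgfra nuclei only, so its rank is a description. Scn1a, a sodium channel, was at 190.0, 186 and 159 CPM in Pdgfra nuclei and 12.7, 60.2 and 21.2 CPM in Enpp6 nuclei. Scn2a, another, was at 143, 151 and 199 CPM against 16.9, 46.8 and 84.7 CPM. The sets did not overlap in any of the 3 genes. Of 17 GABA and other receptors, 5 were lower and none higher. Of these 17, 4 passed the filter through the Pdgfra nuclei only, and on both sides 1 of 13 was lower, where 3.74% of all genes were, so nothing is read from the list. Values of 2 of the 4 follow as a description. Gabra3, a subunit of the GABA-A receptor, was at 121, 122 and 53 CPM against 0, 10.0 and 0 CPM. P2rx7, a channel opened by ATP, was at 68.6, 33.1 and 53 CPM and had no UMI in Enpp6 nuclei. Of 25 glutamate receptor genes 5 were lower (Grik1, Grin3a, Grip1, Cacng4 and Cacng5), and 4 of 23 on both sides. Grik2, a kainate receptor subunit, was higher, at 2328, 2534 and 2752 CPM against 1029, 871 and 981 CPM. Gria2, an AMPA receptor subunit, was at 1809, 2247 and 3112 CPM in Enpp6 nuclei and 1668, 1558 and 1432 CPM in Pdgfra nuclei and not past the fold. Neurons also express genes of these lists, and medians of neuron markers were below 0 in this comparison: 5 inhibitory-neuron markers had a median log2 ratio of -0.53 and 2 glutamatergic markers one of -1.38, with none past the fold. Of 3 general neuron markers Syt1 was past the fold downward, and their median was -0.62. The part of neuronal RNA in the channel, receptor and adhesion counts was not tested.

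Adhesion and guidance genes went both ways, with 8 of 47 higher and 10 lower (8 and 8 of 44 on both sides, and 9 lower of 47 under TMM factors). Opcml and Ncam2 were on the higher side, Opcml at 10083, 9439 and 11877 CPM in Enpp6 nuclei and 4107, 3439.8 and 4469 CPM in Pdgfra nuclei. Pcdh15, a protocadherin, was on the lower side, at 219, 719 and 445 CPM against 2238, 2713 and 2639 CPM. Growth factor receptor and ligand genes had 4 of 12 lower (Ntrk2, Ntrk3, Pdgfc and Igf1) and none higher (3 of 10 on both sides). Genes outside the lists were named after their values were seen, from those with the largest ratios. Frmd4a, a cell polarity scaffold, was at 14245, 7366 and 13973 CPM in Enpp6 nuclei and 201, 188 and 146 CPM in Pdgfra nuclei. 9630013A20Rik, annotated as an antisense transcript, was at 8485, 6269 and 4742 CPM against 63.3, 89 and 79.6 CPM. On the other side, Tshz2 was at 227, 337 and 649.8 CPM in Pdgfra nuclei against 0, 6.69 and 0 CPM, and Gm2164 had no UMI in Enpp6 nuclei, which made it at least 22.9-fold higher in Pdgfra nuclei pooled over mice (against a floor of 3 counts over the Enpp6 nuclei).

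The platelet-derived growth factor system was next set out for the whole cluster. Of its receptors, Pdgfra is given above and Pdgfrb had no UMI, against 89.4, 48.9 and 74 CPM in astrocyte-like nuclei. Pdgfa, the ligand that acts on Pdgfra, was at 117, 44 and 97.8 CPM in OPC-like nuclei, 67.1, 54.7 and 57.2 CPM in oligodendrocyte-like and 10.5, 18.1 and 14.4 CPM in astrocyte-like nuclei. Pooled over mice the OPC-like level was the highest of the 22 clusters, at 71.7 CPM, but the values of the mice overlapped those of oligodendrocyte-like nuclei. The ligand lay mostly on the side without the receptor: 198, 56.8 and 191 CPM in Enpp6 nuclei and 15.8, 35.2 and 39.8 CPM in Pdgfra nuclei, which did not overlap, though the ratio missed the 2-fold mark in mouse 2. Pdgfc was at 44.5, 39.2 and 48.9 CPM and Pdgfd at 0, 12.2 and 0 CPM, against 224, 156 and 306 CPM in astrocyte-like nuclei. Pdgfb had no UMI.

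Of 19 growth factor receptor and ligand genes in the list, 16 had a UMI in OPC-like nuclei. Erbb4, a neuregulin receptor, was at 2259.9, 2508 and 1647 CPM, above the 463, 608 and 614 CPM of astrocyte-like nuclei and within 2-fold of the 2006, 1610.3 and 1637 CPM of oligodendrocyte-like nuclei. Fgfr2 was at 713, 467 and 685 CPM, below the 1648, 854 and 1186 CPM of oligodendrocyte-like nuclei. Egfr, the epidermal growth factor receptor, was at 0, 9.79 and 0 CPM in OPC-like and 198, 148 and 231 CPM in astrocyte-like nuclei. Fgfr3 had no UMI in OPC-like nuclei and was at 196, 116 and 196 CPM in astrocyte-like nuclei. Erbb4 thus lay above the astrocyte-like level, and Egfr and Fgfr3 below it. Against astrocyte-like nuclei 4 of 17 tested were more than 2-fold higher in all 3 mice and 6 lower (median log2 ratio -0.40). Pdgfra, which chose the cluster, is among the 4, and without it 3 of 16 were higher and 6 lower (median -0.46), where 4.87% of all genes tested were higher and 5.99% lower. Of the 10 genes of the list with at least 10 CPM on both sides, 2 were higher and 2 lower. Against oligodendrocyte-like nuclei 1 of 12 was higher and none was lower, where 5.88% of all genes were higher and 4.49% lower. The 1 gene was again Pdgfra, so nothing is read from it, and of the 11 others none was past the fold.

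The comparison with oligodendrocyte-like nuclei sets the whole cluster, Pdgfra and Enpp6 nuclei together, against the mature cell of the same lineage. Since the clusters were formed on these same counts, it is a description with no p-value. Of 10041 genes tested, 590 (5.88%) were more than 2-fold higher in OPC-like nuclei in all 3 mice and 451 (4.49%) more than 2-fold lower, with a median log2 ratio of 0.14. On both sides, with the meaning given above, 322 of 8583 (3.75%) were higher and 277 (3.23%) lower. Scaling by TMM factors in place of total UMIs moved that median to -0.02 and the split to 476 higher and 549 lower. Under TMM factors the medians of the microglia and ensheathing-glia marker lists changed sign in this comparison, from 0.07 to -0.05 and from 0.21 to -0.46. Of the 21 lists run, no other with a median did so here, against astrocyte-like nuclei or between the 2 sets, and none did with totals that leave out Malat1.

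The largest differences upward were in Gm4876, Pdgfra, Neu4, Sox6 and Xylt1. Sox6, a factor that holds precursors undifferentiated, was at 1182, 1307 and 824 CPM against 16, 28.2 and 0 CPM. Xylt1, which adds the first sugar of proteoglycan chains, was at 778, 811 and 1036 CPM against 12.8, 22.2 and 0 CPM. Vcan, the proteoglycan versican, was at 832, 772 and 514 CPM against 6.39, 12 and 7.15 CPM. In all 3 genes oligodendrocyte-like nuclei were close to 0. Neu4 had no UMI in oligodendrocyte-like nuclei and was at least 258-fold higher, pooled over mice. The largest differences downward were in Mal, Prr5l, Aspa, Mobp, Ermn, AC110241.2, Ndrg1 and Hapln2. Ndrg1, a gene of myelinating glia, had no UMI in OPC-like nuclei and was at 399, 265 and 357 CPM. None of these groups overlapped.

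Proteoglycan and matrix genes had 13 of 19 tested past the fold upward, 1 downward and a median log2 ratio of 3.72. Cspg4, which the choice of cluster used, is 1 of them, and without it 12 of 18 were higher and 1 lower (median 3.46). Without all 4 genes that also stand in the OPC list (Cspg4, Ptprz1, Tnr and Vcan), 9 of 15 were higher and 1 lower (median 3.09). On both sides 10 of 12 of the list were higher and none lower. Cspg5 was at 753, 675 and 628 CPM against 35.1, 82.3 and 35.7 CPM (log2 ratio 3.72 ± 0.67, SD, n = 3). Ptprz1 was at 1280.0, 1309 and 1305 CPM against 73.5, 35.5 and 0 CPM (log2 ratio 5.70 ± 2.08). Hapln2, a link protein of the node of Ranvier, was the 1 downward, at 2.34, 1.22 and 0 CPM against 431, 271 and 436 CPM. Committed progenitor genes had 9 of 12 higher and none lower, and 1 was lower with either other scaling. On both sides 7 of 10 were higher. Of 23 myelin genes 17 were lower and none higher (median -3.18), with 21 lower under TMM factors and 19 with totals that leave out Malat1. On both sides 8 of 14 were lower (median -1.82). Mbp was not past the fold, at 2787, 1014 and 1655 CPM against 5385, 2941 and 4617 CPM (log2 ratio -1.32 ± 0.32), though no value overlapped.

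Of 24 transcription factors tested 9 were higher and 2 lower (median 1.07), with 4 lower under TMM factors and 3 with totals that leave out Malat1, and 4 higher and 1 lower of 18 on both sides. Sox5, Sox4, Sox11, Myt1 and Hes5 were among those higher. Myt1, a factor of young neurons and oligodendrocytes, was at 93.8, 155 and 122 CPM against 0, 4.81 and 7.15 CPM. Nkx6-2 and Zfp536 were lower, Zfp536 at 305, 163 and 188 against 1364, 741 and 901 CPM. Sox10 and Olig1 did not pass the fold, with Olig1 at 745, 576 and 628 CPM and 929, 366 and 415 CPM, in overlapping ranges. Against astrocyte-like nuclei 10 of 25 were higher and 4 lower (median 1.00), where 4.87% of all genes were higher and 5.99% lower, and on both sides 5 of 18 were higher and 2 lower. Sox9, a factor of astrocytes and early glia, was at 0, 1.22 and 0 CPM against 177, 125 and 244 CPM there. Id4, an inhibitor of helix-loop-helix factors, was at 0, 4.89 and 0 CPM against 236, 159 and 281 CPM.

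Glutamate receptors had 6 of 25 higher and 1 lower (median 0.92), and 5 and 1 of 24 on both sides. Gria2, the AMPA subunit that limits calcium entry, was at 1746, 1805 and 2079 CPM against 201, 772 and 179 CPM. Grin3a, an NMDA receptor subunit, was at 267, 263 and 334 CPM against 22.4, 8.41 and 0 CPM. Cacng4, a partner that brings AMPA receptors to the surface, was at 246, 281 and 277 against 3.19, 13.8 and 0 CPM. These groups did not overlap. The metabotropic receptor Grm3 went the other way, at 14.1, 25.7 and 40.8 against 537, 593 and 965 CPM. The AMPA subunits Gria3 and Gria4 and the NMDA subunits Grin1, Grin2a and Grin2b were not past the fold. Grin2b was at 204, 358 and 228 CPM in OPC-like nuclei and 128, 525 and 136 CPM in oligodendrocyte-like nuclei, and at 1025, 1092 and 921 CPM in all other nuclei, most of them neurons.

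Neuron markers did not pass the fold in this comparison, with a median log2 ratio of 0.44 for 5 inhibitory-neuron markers, -0.39 for 2 glutamatergic and 0.56 for 3 general ones. Their part in the receptor, channel and adhesion counts was not tested. Of 17 GABA and other transmitter receptors 1 was higher, Gabrg1, at 25.8, 36.7 and 73.4 against 0, 7.81 and 7.15 CPM, and none was lower (median 0.62). That is 5.88% of the list, equal to the share of all genes tested, and on both sides none of 15 was higher, so nothing is read from the list. Of 27 ion channels 4 were higher (Kcnj16, Kcnd3, Kcnip3 and Cacna2d3) and 1 lower, Kcna1, at 131, 51.4 and 73.4 against 505, 291 and 314 CPM (median 1.19), with 2 higher and 1 lower of 24 on both sides. Kcnj10, an inward rectifier potassium channel of glia, was at 79.7, 52.6 and 57.1 CPM in OPC-like nuclei and 125, 97.9 and 92.9 CPM in oligodendrocyte-like nuclei, not past the fold. Of 47 adhesion and guidance genes 23 were higher and 1 lower (median 1.44), and 19 of 41 higher and none lower on both sides. Lsamp, a cell adhesion protein of limbic neurons, was at 8111, 7976 and 8659.6 CPM against 556, 869 and 1815 CPM. Dscam, which keeps branches of 1 cell apart, was at 1317, 1720.3 and 1598 CPM against 134, 339 and 179 CPM, and Megf11, known for the spacing of retinal neurons, at 119.6, 187 and 147 CPM against 0, 2.4 and 7.15 CPM. Each of the 3 was higher in every mouse, with no overlap. Of 15 Notch, Wnt, BMP and hedgehog genes 7 were higher and none lower (median 1.43; 3 of 11 on both sides, median 0.35), among them Gpr37l1, a receptor of glia, at 291, 212 and 163 CPM against 16, 10.8 and 7.15 CPM.

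**Figure D5:**
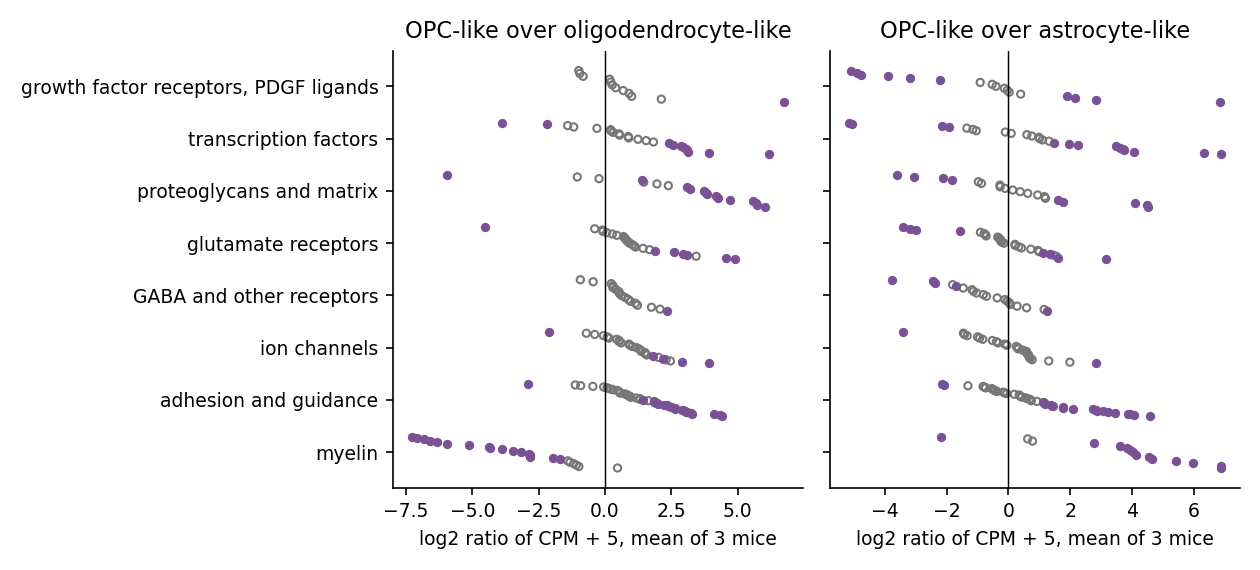
Log2 ratio (mean of 3 mice) of each tested gene of 8 lists in OPC-like nuclei over oligodendrocyte-like nuclei (left) and over astrocyte-like nuclei (right). Filled points are more than 2-fold higher or lower in every mouse. On the left 13 of 19 proteoglycan and matrix genes (12 of 18 without Cspg4, which the choice of cluster used) are filled on the higher side and 17 of 23 myelin genes on the lower side, and on the right 12 of 15 myelin genes are filled on the higher side.

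Against astrocyte-like nuclei, glia of another lineage that carry similar surface genes, 511 of 10501 genes (4.87%) were higher in all 3 mice and 629 (5.99%) lower, with a median log2 ratio of -0.03. On both sides 305 of 9065 (3.36%) were higher and 313 (3.45%) lower. TMM factors moved that median to -0.17. Of 12 OPC markers 10 were higher and none lower (8 of 10 without the 2 that chose the cluster), and the exceptions were Ptprz1 and Sox6. Of the 12, 5 passed the filter through the OPC-like nuclei only, and on both sides 5 of 7 were higher and none lower. Ptprz1 was at 1280.0, 1309 and 1305 CPM in OPC-like and 1667, 1244 and 1839 CPM in astrocyte-like nuclei, in overlapping ranges. Proteoglycan and matrix genes had 5 of 20 higher and 4 lower (median 0.26), or 4 of 19 higher and 4 lower without Cspg4 (median 0.14). Without all 4 genes that also stand in the OPC list, 2 of 16 were higher and 4 lower (median 0.02). On both sides 3 of 16 were higher and 2 lower. Tnr was on the higher side, at 5150.3, 4373 and 5919.9 CPM against 318, 261 and 317 CPM. Gpc5 was on the lower side, at 1353, 1525 and 1549 CPM against 6595, 4980.1 and 7787 CPM. The list thus split both ways in this comparison.

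Myelin genes were higher than in astrocyte-like nuclei in 12 of 15 tested, and Aspa was lower (3 of 5 higher and none lower on both sides). In Pdgfra nuclei alone, Mbp stood at 42.2, 51.7 and 0 CPM, against 19.98, 22.5 and 22.7 CPM in astrocyte-like nuclei. For Mbp the values of the Pdgfra nuclei thus overlapped those of astrocyte-like nuclei. The 13 oligodendrocyte markers, of which Mbp is 1, summed to 433, 410 and 358 CPM in Pdgfra nuclei. In astrocyte-like nuclei they summed to 293, 173 and 162 CPM, which did not overlap. Of 23 Notch, Wnt, BMP and hedgehog genes 10 were lower and 1 higher. Of these 6 passed the filter only through the astrocyte-like nuclei and 2 only through the OPC-like nuclei, and of the 15 on both sides 6 were lower and none higher (median -1.07). Of 20 GABA and other transmitter receptors 4 were lower and 1 higher, with a median of -0.76 (3 lower and none higher of 16 on both sides, median -0.53), where 5 inhibitory-neuron markers had a median of -0.77 and none past the fold. Gli3, a hedgehog pathway factor, was at 0, 1.22 and 0 CPM against 173, 131 and 223 CPM. Bmpr1b, a BMP receptor, was at 0, 8.56 and 24.5 CPM against 322, 209.6 and 390.5 CPM, and Notch2 at 28.1, 22 and 24.5 CPM against 178, 123 and 104 CPM. None of the 3 overlapped. Glutamate receptors had 4 of 27 higher and 4 lower (3 and 3 of 24 on both sides), with Grik4 higher and Gria1 lower, at 115, 224 and 122 CPM against 1264, 1070.2 and 1278 CPM. Of 45 adhesion genes 17 were higher and 2 lower (14 and 2 of 41 on both sides), with Dscam at 166, 315 and 111 CPM in astrocyte-like nuclei.

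Against all other nuclei 632 of 10231 genes (6.18%) were higher in all 3 mice and 413 (4.04%) lower, with a median log2 ratio near 0 (0.000506). TMM factors moved that median to -0.22 and the split to 504 higher and 644 lower. All 12 committed progenitor genes and 11 of 12 OPC markers were higher, Lhfpl3 being the exception, and without Pdgfra and Cspg4 this was 9 of 10. On both sides 5 of 5 committed progenitor genes and 4 of 5 markers were higher, where 4.02% of 8901 genes were higher and 3.42% lower. The genes that led the cluster over the highest other cluster were Neu4, Gpr17, S100a3, Gm38039, Dct, Bcas1os2, Slc5a7, Mpzl1, 3110035E14Rik, 5730559C18Rik, Enpp6 and Tnr. S100a3, a small calcium-binding protein, was at 86.7, 53.8 and 32.6 CPM against at most 1.18 CPM elsewhere. Dct, known as an enzyme of melanin synthesis, was at 185, 44 and 147 CPM against at most 9.92 CPM. Slc5a7, the choline transporter, was at 35.2, 45.3 and 16.3 CPM against at most 0.527 CPM. The highest other cluster was thus far below all 3 mice for each of these genes. Of these, Bcas1os2, Dct, Mpzl1 and Gm38039 were past the fold upward in Enpp6 nuclei. S100a3 was at 92.8, 60.2 and 21.2 CPM in Enpp6 nuclei and 79.2, 51.7 and 39.8 CPM in Pdgfra nuclei, which overlapped.

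The genes whose level over the 22 clusters was most like that of Pdgfra were Gm15222 (Pearson r of 0.993), Bmp4 (0.986), Cspg4 (0.961), Megf11 (0.956) and Ptger1 (0.900), followed by Pxdc1, Rnf43, Chst5, Lims2 and Tagln2. The r is over log2(CPM + 5) of 22 points that share libraries. Outside clusters 19 and 18 Pdgfra was at most at 2.56 CPM, and which clusters set r was not tested. Pdgfra and Cspg4 chose the cluster, so the ranking is a description. For Bmp4 the likeness was one over clusters and not over nuclei. It was next to Gm15222 in r, and within the cluster it was past the fold upward in Enpp6 nuclei, as given above. Cspg4 and Megf11 went with the Pdgfra nuclei, Megf11 at 264, 252 and 239 CPM against 4.22, 76.9 and 0 CPM.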

How the data were processed

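Olfactory bulb nuclei from 3 mice were profiled with 10x 3' v3 chemistry, 1 library per mouse. The deposited matrices are UMI counts of 31055 genes in each called barcode. They come from Cell Ranger 3.0.2, per the file headers, run on mm10 (GRCm38). The authors kept nuclei with at least 1000 genes and a mitochondrial percent of at most 5, merged the mice in Seurat by canonical correlation and clustered them by the Louvain method. Their deposited table gives the cluster of each nucleus. They removed doublets by scatter gates in the sort, and no caller was run here. The 3 libraries held 58526996, 213891496 and 62929479 UMIs in the nuclei kept.

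UMIs were summed per mouse and cluster, scaled to CPM, and set against another set of nuclei in the same mouse as the log2 ratio of CPM + 5. A gene was past the fold when the ratio was above 2, or below 0.5, in every mouse, among genes with a mean of at least 10 CPM over both sides. Since such a gene can pass through 1 side alone, counts are also given for genes with at least 10 CPM on each side, chosen after seeing the data. Clusters came from these same counts, so no p-value was computed for genes, and exact permutation tests over mice were kept to depth, over libraries and, as an added alternative, within mice. Mice are separate animals, and nuclei were never used as replicates. Nuclei were thinned to 2000 UMIs for shares, leaving out shallower ones. Of the OPC-like nuclei none was left out, and of the astrocyte-like nuclei 8 were. Of all symbols 35 stand on more than 1 row and were kept apart. Named genes were members of fixed lists, the 12 with the largest ratio over the highest other cluster, the 8 with the largest differences in each direction from oligodendrocyte-like nuclei, and the 10 most like Pdgfra over clusters. Between the 2 sets, genes outside the lists came from the 12 with the largest ratios in each direction, a rule added after seeing the data. The cluster and the lists were chosen with earlier results of these data known. The split by Pdgfra and Enpp6, and its alternatives, were chosen after seeing the data. Positions are those of the GRCm38 annotation. Python 3.11.15, numpy 2.4.6, scipy 1.17.1 and pandas 2.3.3 were used, and edgeR 4.0.16 in R 4.3.3 gave TMM factors only. Some genes of the lists are counted in them and not reported here by name.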

Additional observations from a re-analysis of the deposited data

How the results depend on the processing

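The choice of cluster, the median UMIs per nucleus, the share of cells and the share with an Enpp6 UMI moved by less than 1 SD of the mice, where one applies, under every other setting tried. Median genes per nucleus were run only without 1 mouse, giving 2612.5 to 3071.25, so no stability is read from them. A mean without 1 of 3 mice stays within 1 SD of the full mean by construction, and those values are ranges only: 0.321% to 0.643% for the share of OPC-like nuclei and 31.5% to 40.5% for the share with an Enpp6 UMI. Asking for a factor of 4 in place of 2 left 253 genes of 1045 against all other nuclei (240 higher and 13 lower), 366 of 1041 against oligodendrocyte-like nuclei (186 and 180), 453 of 1140 against astrocyte-like nuclei (198 and 255) and 301 of 1083 between Enpp6 and Pdgfra nuclei (125 and 176). Leaving out 1 mouse raised each count, since fewer mice then had to pass: to between 1177 and 1693, 1237 and 1883, 1255 and 1715, and 1593 and 2126, in each case highest without mouse 2. The mean share of nuclei with at least 2 commitment genes was 95.7% and fell to 72.2% after thinning. Leaving out nuclei with 2 or more neuron-marker UMIs moved the split to 392 higher and 1145 lower against all other nuclei, 391 and 787 against oligodendrocyte-like nuclei, and 403 and 1277 against astrocyte-like nuclei. Those counts rest on the 19, 6 and 1 OPC-like nuclei that were left in the 3 mice. Against all other nuclei only the OPC-like side was filtered, by this mark and by the next, so the neurons there stayed in. Against oligodendrocyte-like and astrocyte-like nuclei both sides were filtered. The stricter mark of 5 UMIs, chosen after seeing the data, left 45, 65 and 7 OPC-like nuclei and gave 745 and 811 against all other nuclei, 813 and 533 against oligodendrocyte-like nuclei, 657 and 860 against astrocyte-like nuclei, and 358 and 877 between Enpp6 and Pdgfra nuclei. Nuclei with a Pdgfra UMI alone, also chosen after seeing the data, gave 799, 1295 and 1011 genes in the first 3 comparisons, split into 558 higher and 241 lower, 737 and 558, and 467 and 544. Thinning gave 526 higher and 611 lower, 609 and 502, and 483 and 761. Asking for 10 CPM on both sides, also added after seeing the data, left 662 (358 and 304), 599 (322 and 277), 618 (305 and 313) and, between the sets, 580 (275 and 305), since genes near 0 on 1 side then drop out. Replicate numbers pair no groups of mice, since there is 1 group, but the cell types come from the same mice and every gene ratio was taken within a mouse. For depth, a replicate block that exchanges cell types within each mouse, added after seeing the data, left the differences in median UMIs at 3208 and 3382 and in median genes at 962 and 870 and gave an exact permutation p of 0.25 in place of 0.1. Depth limited mouse 3 most: 1 UMI in its 10 OPC-like nuclei is 8.15 CPM. Of 1041 levels of listed genes without 1 mouse, 84 moved by over 1.5 times.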
